A study of Mus musculus with 6 samples.

Results

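S100a8 and S100a9, the mouse genes of the calprotectin subunits, were followed through 6 Agilent 2-colour arrays of HACA cells carrying short hairpin RNAs, small RNAs that lower the transcript they are directed against. Both genes were chosen by symbol among the 18558 genes tested, with their ratios in these arrays already known, so their own values are given as a description with no test. The arrays compared 4 hybridisations of shLoxl2 RNA (a hairpin against Loxl2, a lysyl oxidase-like enzyme; replicates 1 and 2, each hybridised in both dye orientations) and 2 of shSnail RNA (a hairpin against the zinc-finger repressor Snail; replicates 1 and 2, both in Cy5) with RNA of the control line shGFP (a hairpin against green fluorescent protein), which filled the other channel of every array. Every group therefore carried a hairpin. The labels name no tissue, age or clone and leave unsaid where the replicates come from, so the spread over n = 2 per silenced line may be technical. The control counted as 1 sample, so its own spread is left out of every ratio.

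S100A8 and S100A9 are small calcium-binding proteins that pair into calprotectin, which binds zinc and manganese and so starves microbes of them. Released from cells, they act as alarm signals at Toll-like receptor 4 and at RAGE, the receptor for advanced glycation end products. Neutrophils and monocytes hold large amounts, and keratinocytes make them in wounds, in psoriasis and in skin tumours. In mouse, the genes lie side by side in the S100 cluster beside the epidermal differentiation genes of chromosome 3.

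In the RefSeq annotation of GRCm38.p6, S100a8 spans chr3:90669071-90670034 on the plus strand (964 bases) and S100a9 spans chr3:90692630-90695721 on the minus strand (3092 bases), with 22.6 kb between them, so their 3′ ends face each other. The 250 bases before each annotated start are printed because both genes moved together in both silenced lines; capitals mark the motif matches described next. Coordinates of the windows are chr3:90668821-90669070, plus strand, for S100a8 and chr3:90695722-90695971, minus strand, for S100a9.
S100a8: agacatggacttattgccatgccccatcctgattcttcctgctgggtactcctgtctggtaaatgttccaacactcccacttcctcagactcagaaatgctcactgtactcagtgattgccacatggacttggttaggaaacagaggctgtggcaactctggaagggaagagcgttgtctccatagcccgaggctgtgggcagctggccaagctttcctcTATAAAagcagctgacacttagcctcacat
S100a9: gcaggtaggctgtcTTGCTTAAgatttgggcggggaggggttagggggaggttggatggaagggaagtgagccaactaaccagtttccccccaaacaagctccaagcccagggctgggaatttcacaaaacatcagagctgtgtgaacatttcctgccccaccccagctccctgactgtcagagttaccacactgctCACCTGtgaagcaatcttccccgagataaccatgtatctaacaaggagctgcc
Both strands were searched for 5 motifs: the E2 box CAGGTG, the sequence that Snail is known to bind, AP-1 TGANTCA, C/EBP TTGCNNAA, STAT TTCNNNGAA and the TATA box TATAAA. The S100a8 window held TATAAA 30 to 25 bases before the start. The S100a9 window held the E2 box on the opposite strand (printed as CACCTG), 53 to 48 bases before the start, and a C/EBP match at 236 to 229 bases before it. No AP-1 or STAT letters, and in S100a8 no E2 box or C/EBP letters, occurred in these windows, and none of the matches overlapped another. In S100a9 TATAAA occupied bases 1 to 6 after the annotated start, outside the printed window. Of 32851 RefSeq promoter windows of 250 bases, 17.2% held the E2 box, 12.4% TATAAA, 9.56% the C/EBP letters, 7.02% the STAT letters and 6.75% the AP-1 letters, and a match describes the sequence alone.

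Each gene had 1 probe on the array. The S100a8 probe was placed by the array's design files at chr3:90755783-90755842 and the S100a9 probe at chr3:90778590-90778649, both in the older mm8 build. Both probes were well above background in both channels of all 6 arrays. Across the arrays, 85.4% to 92.4% of spots were well above background in red and 55.9% to 74.9% in green. Over all probes, the 2 arrays of a dye-swapped shLoxl2 pair correlated at 0.02 and -0.03 once their ratios were turned to the same direction, while the 2 averaged pairs correlated at 0.68 and the 2 shSnail arrays at 0.88. The hairpins' targets do not check the labels: the Loxl2 probe gave a log2 fold change of 0.11 (limma adjusted p = 0.59) in shLoxl2 cells, and the Snai1 probe was well above background in 0 of 2 shSnail channels and 0 of 2 shGFP channels of those arrays. All shLoxl2 arrays were scanned on the first of 2 scan days and all shSnail arrays on the second, so scan day and silenced line cannot be told apart.

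S100a9 was much higher in shLoxl2 than in shGFP cells and S100a8 modestly so, while both stood far below shGFP in shSnail cells. Per array, the log2 ratio of S100a9 in shLoxl2 over shGFP was 2.90 (replicate 1, Cy3), 2.98 (replicate 1, Cy5), 2.38 (replicate 2, Cy3) and 2.63 (replicate 2, Cy5), and in shSnail over shGFP it was -3.61 and -3.97. The 4 shLoxl2 values lie close together, all are above 0, and both shSnail values are below 0. For S100a8 the log2 ratio in shLoxl2 over shGFP was 1.65, 1.04, 0.19 and 1.05 in the same order, and in shSnail over shGFP it was -4.24 and -4.73. S100a8 was thus higher than shGFP on every shLoxl2 array, but in the Cy3 array of replicate 2 by only 1.14-fold.

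**Figure D1:**
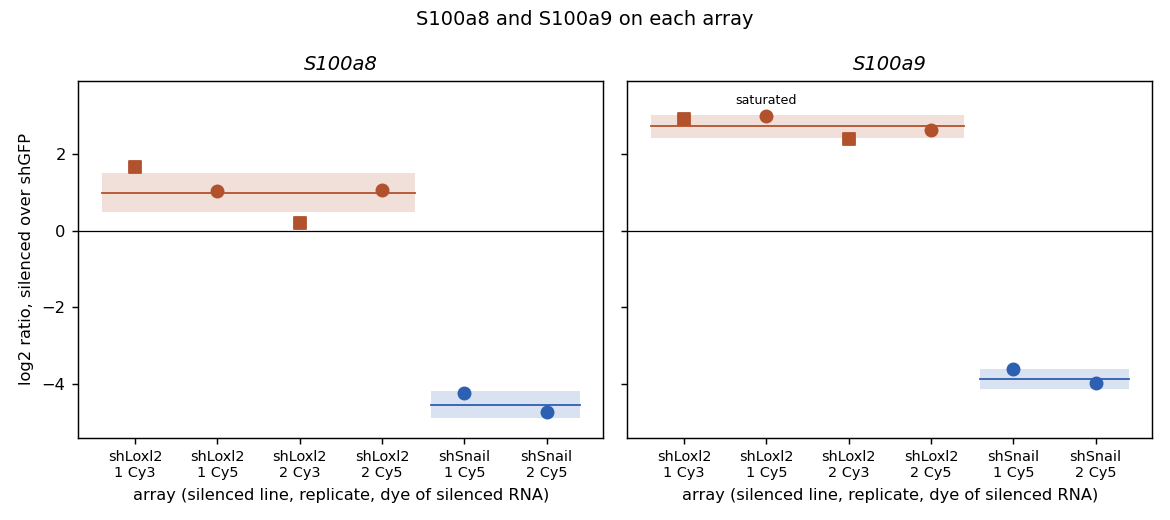
Log2 ratio of silenced over shGFP RNA (vertical axis) on each of the 6 arrays (horizontal axis) for S100a8 (left) and S100a9 (right); squares mark silenced RNA in Cy3 and circles in Cy5, lines the mean of each silenced line and shading its SD (n = 2). All shLoxl2 points lie above 0, from 0.19 for S100a8 to 2.98 for S100a9, and all shSnail points lie at -3.61 or below.

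The signals behind these ratios showed where each gene stood in each RNA. After normalization within and between arrays, the S100a9 signal in the shLoxl2 channel was 49354, 32022, 37328 and 32258 (replicate 1 in Cy3 and Cy5, then replicate 2 in Cy3 and Cy5), against 6615, 4072, 7163 and 5202 in the shGFP channel of the same arrays. On the shSnail arrays, the S100a9 signal was 436 and 383 in the shSnail channel, against 5336 and 5989 in the shGFP channel. By these signals S100a9 was highest in shLoxl2, lowest in shSnail and between them in shGFP RNA. This order, and that of S100a8 below, describes genes chosen with their ratios known. The share of all probes ordered in this way was not counted. The S100a9 spot was saturated in the shLoxl2 channel of 1 array, replicate 1 in Cy5, where the true ratio may be larger than the one measured. In replicate 2 in Cy5 it was not flagged, but its raw signal, 63434, lay close to the 65233 of the saturated spot.

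The S100a8 signal in the shLoxl2 channel was 9617, 14845, 9043 and 14507 in the same order, against 3062, 7231, 7906 and 7007 in the shGFP channel. On the shSnail arrays it was 323 and 322 in the shSnail channel, against 6092 and 8561 in the shGFP channel. Here the lowest shLoxl2 signal, 9043, stood above the highest shGFP signal of any array, 8561, by little, and both shSnail signals were far below either. As log2 levels, S100a8 averaged 13.51 ± 0.04 in shLoxl2, 8.33 ± 0.005 in shSnail, and 12.53 ± 0.47 and 12.82 ± 0.35 in shGFP on the shLoxl2 and shSnail arrays (SD, n = 2 each). S100a9 averaged 15.18 ± 0.14 in shLoxl2, 8.67 ± 0.13 in shSnail, and 12.46 ± 0.17 and 12.46 ± 0.12 in shGFP on those arrays. The shGFP levels of a gene on the 2 sets of arrays thus differed by less than their spread, although the sets were scanned on different days. The order shLoxl2, shGFP, shSnail held for both genes, and for S100a8 the step between shLoxl2 and shGFP was the smaller.

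**Figure D2:**
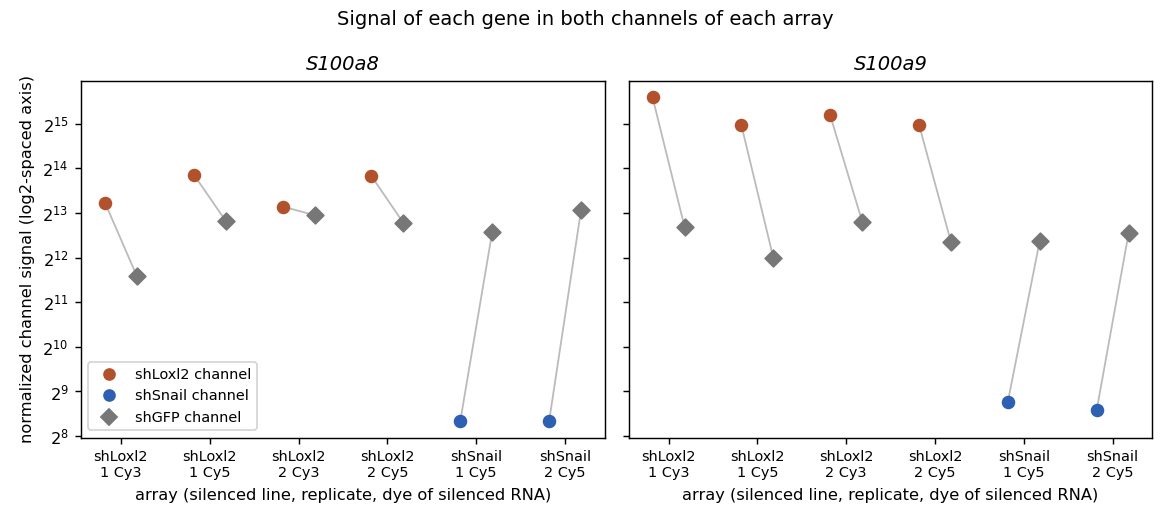
Normalized signal (vertical axis, log2-spaced) of S100a8 (left) and S100a9 (right) in the silenced channel (coloured circles) and the shGFP channel (grey diamonds) of each array (horizontal axis); a line joins the channels of an array. The shSnail circles lie between 322 and 436, and every shGFP diamond lies at 3062 or above.

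Averaged over replicates, S100a9 was 6.60-fold higher in shLoxl2 than in shGFP cells, a log2 fold change of 2.72 ± 0.30 (SD, n = 2; SE 0.16), with 2.94 in replicate 1 and 2.51 in replicate 2. S100a8 was 1.98-fold higher, a log2 fold change of 0.98 ± 0.51 (SD, n = 2; SE 0.21), with 1.34 and 0.62. The replicates of S100a8 differ by about as much as the smaller of them, so the size of its rise is poorly fixed. Ranked from the largest rise over 19719 probes, S100a9 stood at 27 and S100a8 at 459. Both carried an adjusted p under 0.05 in limma, as did 13.8% of all probes (8.01% higher and 5.83% lower); since this contrast helped choose the genes, nothing is read from that. With the scanner software's log ratio, with scale normalization between arrays, or without shLoxl2 replicate 1, 1 of the 2 genes was called.

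In shSnail cells S100a8 was 23.4-fold lower than in shGFP cells, a log2 fold change of -4.55 ± 0.35 (SD, n = 2; SE 0.34), and S100a9 was 14.6-fold lower, at -3.87 ± 0.25 (SD, n = 2; SE 0.20). Both signals were low in the shSnail channel, so these falls are firmer in direction than in size. Ranked from the largest fall, S100a8 was at 2 and S100a9 at 4 of 19719 probes. Both shSnail arrays had the silenced RNA in Cy5, so the dye effect measured on the shLoxl2 pairs was subtracted. That effect was -0.31 and 0.43 for S100a8 (mean 0.06) and 0.04 and 0.13 for S100a9 (mean 0.08), small beside the falls. Over all probes the slope of the shSnail ratios on this effect was 0.453. With the effect scaled by that slope before subtraction, S100a8 and S100a9 were at -4.51 and -3.83. Of all probes, 21.3% were called in this comparison (8.77% higher and 12.5% lower), given here without a reading for the chosen genes. Scaled by the scanner software instead, 1012 probes were called higher and 3172 lower, against 1729 and 2474.

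On the 4 arrays with silenced RNA in Cy5, shSnail against shLoxl2 gave log2 differences of -5.53 ± 0.25 for S100a8 and -6.59 ± 0.25 for S100a9, 46.2-fold and 96.6-fold lower in shSnail cells. Here ± is the SD of array ratios within a line, pooled over both lines (n = 2 each), and the SE was 0.21 for each gene. In the ranking of falls S100a9 was at 1 and S100a8 at 4. The S100a9 spot was flagged as saturated in the shLoxl2 channel of 1 of the 2 shLoxl2 arrays used here, at a raw signal of 65233. On the other array its raw signal, 63434, lay close to that. The fold and rank of S100a9 are therefore approximate, and its true fold may be larger. Called probes made up 12.8% (4.22% higher and 8.53% lower), or 423 higher and 1927 lower with the scanner software's scaling, against 833 and 1683. Far fewer probes were called with shSnail replicate 1 or 2 left out, but more with shLoxl2 replicate 1 or 2 left out. With 1 array left in a line, the spread came from the other line alone. These counts therefore do not show which calls rest on both arrays of a line.

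The subunit genes did not move by equal steps. S100a9 minus S100a8, as a difference of log2 ratios, was 1.25, 1.94, 2.19 and 1.58 on the shLoxl2 arrays (averaging 1.74 ± 0.21, SD, n = 2) and 0.62 and 0.77 on the shSnail arrays (0.70 ± 0.10, SD, n = 2). It was above 0 on all 6 arrays: S100a9 rose more in shLoxl2 cells and fell less in shSnail cells. In the shSnail channel the raw signals of both genes were only 282 to 370 over a background of 71 to 72. The size of the shSnail difference is therefore not firm. Across the 6 arrays the ratios of the pair correlated at 0.99, a description over arrays that share the control RNA and fall into 2 groups.

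The other S100 genes code for calcium-binding relatives of diverse function, and 11 of 16 listed were on the array, all tested. The shLoxl2 cells had 2 of the 11 higher and 0 lower (18.2% called, beside 13.8% of all probes), at a median log2 fold change of 0.13 beside -0.01 over all probes. S100a4, the metastasin gene known from motile cells, rose by 1.0 (SE 0.10; limma adjusted p = 0.00482), with its spot saturated in 2 of 4 shLoxl2 channels. S100a13, which takes part in the release of growth factors without a signal peptide, rose by 0.60 (SE 0.14; limma adjusted p = 0.0475). The remaining 9 lay between -0.40 and 0.47 and did not pass, and 5 of the 11 had an unadjusted p under 0.05. S100a13 did not pass without shLoxl2 replicate 1 (0.38; limma adjusted p = 0.198), and S100a4 did not with the scanner software's ratios (0.95; limma adjusted p = 0.0514).

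In shSnail cells 6 of the 11 were called higher and 1 lower (63.6% called, beside 21.3% of all probes). Their median was 0.66 beside -0.04 over all probes, while S100a8 and S100a9 stood at -4.55 and -3.87. S100a13 rose by 1.72 (SE 0.19; limma adjusted p = 0.00257), S100a4 by 1.57 (SE 0.13; limma adjusted p = 0.00144) and S100a10, the partner of annexin A2, by 1.30 (SE 0.16; limma adjusted p = 0.00373). S100a1 and S100a3 rose by 0.86 and 0.66, and S100a16 fell by 0.88. Those 3 are less firm: in limma without 1 replicate, the adjusted p reached 0.0835 for S100a1, 0.112 for S100a3 and 0.184 for S100a16, and the number of S100 genes called ran from 3 to 5 (4 to 9 under other processing). S100g, the sixth called higher at 0.76, was well above background in 0 of 2 shSnail channels; its value was -0.73 with no dye correction, so its direction is not fixed. S100a6, called in neither line, was saturated in 3 of 4 shLoxl2 channels, in all 4 shGFP channels of those arrays and in both shSnail channels, which limits its ratios.

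**Figure D3:**
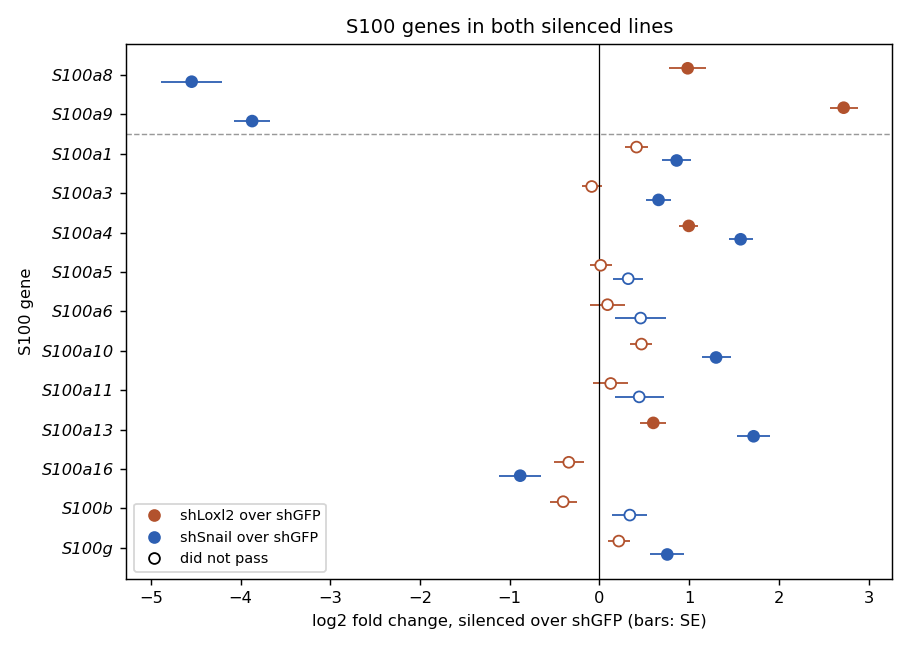
Log2 fold change over shGFP (horizontal axis, bars SE) of S100a8, S100a9 and the 11 other S100 genes tested (vertical axis) in shLoxl2 (red) and shSnail (blue) cells; filled points passed the limma test and open points did not, and the pair above the dashed line is shown filled as a description. S100a8 and S100a9 lie at -4.55 and -3.87 in shSnail cells, where the other S100 genes lie between -0.88 and 1.72.

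Along chromosome 3, 33 other genes with a tested probe lay within 1 Mb on either side of the pair's midpoint, all on the side of S100a8. In shLoxl2 cells 6 of the 33 rose and 0 fell (18.2% called, beside 13.8% of all probes), with a median of 0.25. In shSnail cells 5 rose and 3 fell (24.2%, beside 21.3%), with a median of 0.08. The nearest tested neighbour was S100a6, whose probe lay 67.0 kb from the midpoint, followed by S100a5, S100a4, S100a3 and S100a16 at 69.7, 75.3, 78.8 and 139.0 kb. S100a5 did not pass in either line, at 0.01 in shLoxl2 and 0.32 in shSnail cells. In shSnail cells 0 of the 33 neighbours fell as far as S100a8 or S100a9. In shLoxl2 cells 1 neighbour, S100a4, saturated in 2 of 4 shLoxl2 channels, rose by about as much as S100a8, and 0 rose as far as S100a9.

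**Figure D4:**
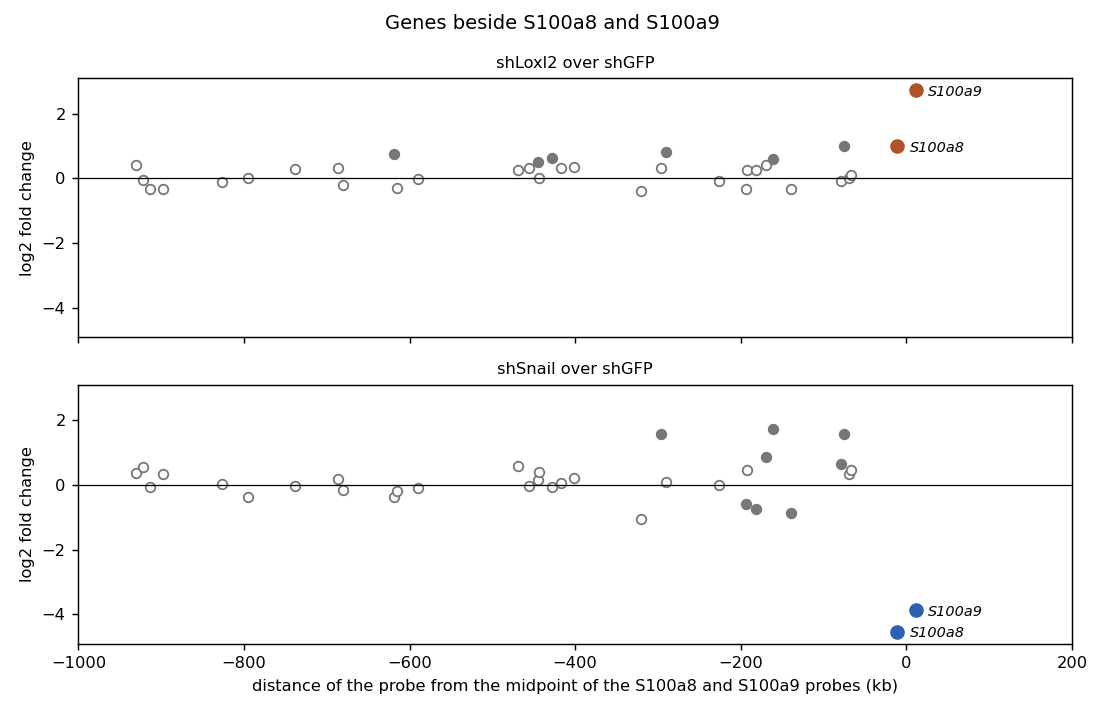
Log2 fold change over shGFP (vertical axis) against distance of the probe from the midpoint of the S100a8 and S100a9 probes in kb (horizontal axis), in shLoxl2 (upper) and shSnail (lower) cells; filled grey points are called neighbours and open ones did not pass. S100a8 and S100a9 (coloured) stand below all 33 neighbours in shSnail cells, and in shLoxl2 cells S100a9 stands above all of them.

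The 10 genes whose ratios over the 6 arrays lay closest to the mean of S100a8 and S100a9, by root-mean-square distance among 15208 genes with a current symbol, shared the rise and the fall by the way they were picked, so their values are descriptive. Nearest was Prl8a9, a placental prolactin relative, at a distance of 0.36 log2 units: its log2 ratios were 1.92, 1.93, 1.88 and 2.10 in shLoxl2 and -4.38 and -4.48 in shSnail cells. All of its shLoxl2 values lie close together and between those of S100a8 and S100a9 on every shLoxl2 array. The other 9 lay at 1.02 to 1.50. Among them, the epithelial cytokine Tslp had log2 fold changes of 2.86 in shLoxl2 and -3.40 in shSnail cells, and the collagenase Mmp13 1.53 and -2.13. Sprr2h, a small proline-rich protein of the cornified envelope, had 1.78 and -2.33, and the secreted epidermal proteins Sbsn (suprabasin) and Dmkn (dermokine) had 1.81 and -1.97, and 1.04 and -2.01. Prl2c3, a proliferin, had 2.50 and -3.03 and was saturated in 3 of 4 shLoxl2 channels; whether near-identical relatives of Prl2c3, Sprr2h or Prl8a9 bind their probes was not tested. Acot1, an acyl-CoA thioesterase, had 1.43 and -2.55, Col5a1, a chain of fibrillar collagen, 1.04 and -1.92, and Serpinb1a, an inhibitor of neutrophil proteases, 0.64 and -2.41. The profiles correlated with that of the pair at 0.894 to 0.996 over 6 arrays that fall into 2 groups.

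**Figure D5:**
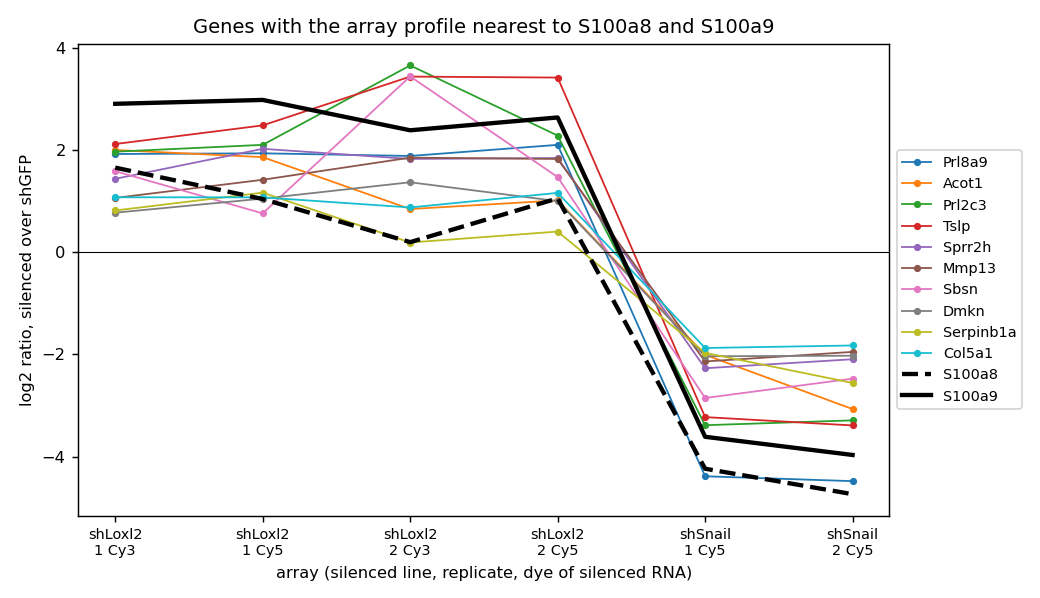
Log2 ratio of silenced over shGFP RNA (vertical axis) on the 6 arrays (horizontal axis) for S100a8 and S100a9 (black) and the 10 genes nearest to their mean profile (coloured). Prl8a9 runs between 1.88 and 2.10 on the shLoxl2 arrays and at -4.38 and -4.48 on the shSnail arrays, and the other 9 lie above both black lines on the shSnail arrays.

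Among receptors and binding partners of S100A8 and S100A9, 15 of 17 listed genes were tested. The share called was 13.3% in shLoxl2 and 6.67% in shSnail cells, beside 13.8% and 21.3% of all probes. It was 6.67% in shSnail against shLoxl2 cells, beside 12.8%. In shLoxl2 cells 1 rose and 1 fell, with a median of -0.05. Tlr4, the Toll-like receptor that S100A8 engages, had log2 ratios that averaged 1.25 (SE 0.13; limma adjusted p = 0.00476) in shLoxl2 cells. Alcam, a cell adhesion molecule of the immunoglobulin family that binds S100 proteins, fell by 1.20 (limma adjusted p = 0.0243), and not past the threshold with the scanner software's ratios (limma adjusted p = 0.0925). In shSnail cells 0 rose and 1 fell, with a median of -0.16: Alcam fell by 1.88 (limma adjusted p = 0.0139), but with either shSnail replicate left out its adjusted p in limma was 0.0667 and 0.0616. Ager, which codes for RAGE, gave -0.25 in shLoxl2 and 0.04 in shSnail cells, and basigin (Bsg), a further S100A9 receptor, -0.05 and 0.44, all short of the threshold. In shSnail against shLoxl2 cells 1 of 15 was lower, Tlr4, at -1.41 (limma adjusted p = 0.0178, but 0.118 and 0.0996 without shSnail replicate 1 or 2).

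Of 21 tested genes of signalling from TLR4 and RAGE, 3 were higher and 3 lower in shLoxl2 cells, at a median of 0.04. The share called was 28.6% in shLoxl2 and 9.52% in shSnail cells, beside 13.8% and 21.3% of all probes. Nfkbia, the inhibitor of NF-kappaB, rose by 1.30 (limma adjusted p = 0.00348), and Chuk, a kinase that acts on such inhibitors, fell by 0.93 (limma adjusted p = 0.0128). Nfkbiz, an atypical inhibitor, fell by 1.13 and Nfkb1, a subunit of NF-kappaB, by 0.64 (limma adjusted p = 0.0137 and 0.0169). Nfkb1 did not pass without shLoxl2 replicate 1 (limma adjusted p = 0.0567), and with the scanner software's ratios 3 of the 21 were called. In shSnail cells 0 rose and 2 fell, with a median of -0.27: Nfkb1 fell by 1.50 (limma adjusted p = 0.00153) and Chuk by 0.95 (limma adjusted p = 0.016). Chuk did not pass without shSnail replicate 1 or 2 (limma adjusted p = 0.0904 and 0.066), and other processing called 2 to 7 of the 21. Myd88, the adaptor of TLR4, was at 0.01 in shLoxl2 and -0.005 in shSnail cells.

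Among cytokines known to induce S100a8 and S100a9, Csf2, Il6, Il24 and Il1a fell in both lines, while Il1b rose in shLoxl2 cells. Of 20 tested genes of these cytokines and their receptors, 2 were higher and 4 lower in shLoxl2 cells (median -0.11), and 0 were higher and 5 lower in shSnail cells (median -0.17). The share called was 30% in shLoxl2 and 25% in shSnail cells, beside 13.8% and 21.3% of all probes. Csf2 (GM-CSF) had log2 fold changes of -3.69 in shLoxl2 and -2.79 in shSnail cells (limma adjusted p = 0.00243 and 0.0056). Il6, a driver of STAT3, had -2.63 and -1.89 (limma adjusted p = 0.00487 and 0.0157), and Il24, of the interleukin-10 family, -1.66 and -1.45 (limma adjusted p = 0.00183 and 0.00222). Il1a was at -1.24 in shLoxl2 and -2.03 in shSnail cells (limma adjusted p = 0.0348 and 0.0112). Il1b was at 0.78 and -0.19 (limma adjusted p = 0.027 and 0.677), and well above background in 0 of 2 shSnail channels. In shSnail against shLoxl2 cells Il1b was at -0.97 (limma adjusted p = 0.0267), but at -0.26 with no background subtraction (limma adjusted p = 0.117). Il6st, the shared receptor chain of the interleukin-6 family, rose by 0.61 in shLoxl2 cells (limma adjusted p = 0.0193). Without shSnail replicate 1, the adjusted p in limma was 0.0848 for Il6 and 0.0629 for Il1a in shSnail cells, and without shLoxl2 replicate 1 it was 0.0745 for Il6st in shLoxl2 cells.

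Of 21 transcription factors known to act at S100a8 and S100a9 or related to such factors, 1 was higher and 1 lower in shLoxl2 cells (median 0.07), and 1 was higher and 5 lower in shSnail cells (median -0.36). The share called was 9.52% in shLoxl2 and 28.6% in shSnail cells, beside 13.8% and 21.3% of all probes. Hif1a, the hypoxia factor that induces both genes in human cancer cells, had -1.39 in shLoxl2 and -1.40 in shSnail cells (limma adjusted p = 0.00279 and 0.00264). Junb, the AP-1 subunit whose loss together with c-Jun in mouse epidermis raises S100a8 and S100a9, fell by 1.38 in shSnail cells (limma adjusted p = 0.00315) and was at -0.39 in shLoxl2 cells (limma adjusted p = 0.104). Jund, another AP-1 subunit, rose by 0.78 in shLoxl2 cells (limma adjusted p = 0.0134), though not past the threshold without shLoxl2 replicate 1 (limma adjusted p = 0.0516). Fosl2, an AP-1 subunit, fell by 1.55 and Trp53, which codes for p53, rose by 0.84 in shSnail cells (limma adjusted p = 0.0251 and 0.009). Without shSnail replicate 1, the adjusted p in limma was 0.103 for Fosl2 and 0.0666 for Trp53, and with no dye correction Trp53 was at 0.34 (limma adjusted p = 0.0615); for Fosl2 it was 0.0502 without shLoxl2 replicate 1 and 0.0775 without shLoxl2 replicate 2. Cebpb, a C/EBP factor, was at 0.20 in shLoxl2 and -0.59 in shSnail cells (limma adjusted p = 0.359 and 0.0434), and Stat3 at 0.19 and -0.38 (limma adjusted p = 0.386 and 0.142). In shSnail cells the number of these factors called ran from 2 without 1 replicate to 12 with no dye correction, so the count of 6 depends on the processing.

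Genes that keratinocytes make with calprotectin when activated, and other antimicrobial genes, went in different ways. The test called 4 of 16 higher and 1 lower in shLoxl2 cells (31.2%, beside 13.8% of all probes), where the median was -0.02. With no background subtraction, or with the scanner software's ratios, 2 were called higher. Defb4, a beta-defensin, was among the 4, at 0.62 (limma adjusted p = 0.0434). Its array ratios went with the dye, at 2.82 and 1.48 in Cy3 and -1.18 and -0.62 in Cy5. Krt16, a keratin of wounded and psoriatic epidermis, had log2 fold changes of 2.89 in shLoxl2 and -1.24 in shSnail cells (limma adjusted p = 0.000594 and 0.00695); its spot was saturated in 2 of 4 shLoxl2 channels. Tslp, named above among the nearest profiles, passed in both lines (limma adjusted p = 0.00313 and 0.002). Il33, an epithelial alarm cytokine, fell in both, to -1.43 in shLoxl2 and -3.25 in shSnail cells (limma adjusted p = 0.00279 and 0.00103). Defb1, another beta-defensin, was well above background in 2 of 4 shLoxl2 channels and 0 of 4 shGFP channels. It was called higher in shLoxl2 cells, with a log2 fold change of 1.04 (limma adjusted p = 0.0337). That size is not firm: its log2 fold change was 0.59 without shLoxl2 replicate 1 (limma adjusted p = 0.0999) and 0.28 with no background subtraction (limma adjusted p = 0.127). In shSnail cells 0 rose and 3 fell (18.8% called, beside 21.3% of all probes), namely Il33, Tslp and Krt16, and the list median was -0.24. Antimicrobial genes of neutrophils and barrier epithelia that did not pass in either line included Lcn2 (lipocalin 2), at 0.01 and -0.29, and Slpi, a protease inhibitor, at 0.09 and -0.21.

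Among 16 tested genes that calprotectin is known to induce, 3 were higher and 1 lower in shLoxl2 cells (median -0.04), and 0 were higher and 3 lower in shSnail cells (median -0.16). The share called was 25% in shLoxl2 and 18.8% in shSnail cells, beside 13.8% and 21.3% of all probes. Mmp3, a matrix protease, had log2 fold changes of 2.71 in shLoxl2 and -1.79 in shSnail cells (limma adjusted p = 0.000594 and 0.00155). Ccl2, which attracts monocytes, rose by 2.26 in shLoxl2 cells (limma adjusted p = 0.00269) and was at -0.83 in shSnail cells (limma adjusted p = 0.0596). Ptgs2, the inducible cyclooxygenase, fell in both lines, with -2.41 in shLoxl2 and -2.30 in shSnail cells (limma adjusted p = 0.00554 and 0.00778). Saa3, a serum amyloid A, rose by 1.16 in shLoxl2 cells (limma adjusted p = 0.0146), but was at 0.30 with no background subtraction (limma adjusted p = 0.0511). Mmp2, a gelatinase, fell by 0.67 in shSnail cells (limma adjusted p = 0.0359), and did not pass with any 1 of the 4 replicates left out (limma adjusted p = 0.0674 to 0.178). The neutrophil chemokines Cxcl1 and Cxcl5 did not pass in either line, Cxcl1 with -0.56 and -0.74 and Cxcl5 with -0.56 and -0.45.

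In shSnail against shLoxl2 cells the calls among signalling, cytokine and transcription factor genes were all lower in shSnail cells: 3 of 21 signalling genes (Nfkbia at -1.61, Nfkb1 at -0.87 and Relb at -0.86), 2 of 20 cytokine and receptor genes, and 1 of 21 transcription factors (Junb at -0.99). These are 14.3%, 10% and 4.76% of their lists, beside 12.8% of all probes. Of the 16 antimicrobial and keratinocyte genes 4 were lower (25%, beside 12.8% of all probes), among them Tslp at -6.25 and Krt16 at -4.13, and of the 16 induced genes 4 were lower, among them Mmp3 at -4.49 and Ccl2 at -3.08. Among the other S100 genes 2 of 11 were higher (18.2% called), S100a13 at 1.12 and S100a3 at 0.75. Of the 9 keratinocyte and carcinoma markers 1 was higher and 4 lower (55.6% called, median -0.56): Krt8 was at 1.0, Itga6 at -1.51, Epcam at -1.32, Cdh1 at -1.24 and Krt14 at -0.90. Cdh1 was well above background in 1 of 2 shSnail channels. With shSnail replicate 1 or 2 left out, Tslp, Krt16 and Mmp3 still passed, Ccl2 did not without replicate 1, and 0 of the other S100, signalling, cytokine, transcription factor and keratinocyte marker genes were called.

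Because leukocytes are rich in S100a8 and S100a9, markers of leukocytes were read beside them. Of 18 markers on the array 16 were tested. The share called was 6.25% in shLoxl2 and 0% in shSnail cells, beside 13.8% and 21.3% of all probes. In shLoxl2 cells 1 rose, the lysosomal marker Cd68, by 0.66 (limma adjusted p = 0.0185, but 0.0737 without shLoxl2 replicate 1), and 0 fell, with a median of -0.10. In shSnail cells 0 passed in limma (2 at an unadjusted p under 0.05), with a median of -0.03, although 4 were called with no dye correction and 1 with the scanner software's ratios. The summed leukocyte marker signal, not corrected for dye, was 3255 to 4742 in the shLoxl2 channel, against 3255 to 4440 in the shGFP channel of those arrays. It was 5066 to 5557 in the shSnail channel, against 4548 to 5080 in the shGFP channel. Of the 18 markers, 11 and 13 were well above background in the shLoxl2 channel in Cy5, and 7 and 5 in Cy3. The shGFP channel of those arrays had 15 and 17 in Cy5, and 5 on each array in Cy3. The shSnail channel, always in Cy5, had 14 and 11, and its shGFP channel, always in Cy3, had 7 and 6. These counts went with the dye, so they do not compare shSnail with shGFP cells. The pan-leukocyte marker Ptprc was well above background in 1 of 4 shLoxl2 channels and 0 of 4 shGFP channels, and the neutrophil receptor Cxcr2 in 0 and 1. In bulk RNA, fewer cells of a type and less RNA per cell cannot be told apart.

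Keratinocyte and carcinoma markers were well above background in 8 or 9 of 9 cases in every silenced channel and in 6 to 9 of 9 in every shGFP channel. The shGFP counts were 8 and 9 in Cy5 and 6 on every array with shGFP in Cy3. In shLoxl2 cells Epcam and Cdh1 rose, by 1.51 and 1.08, and Trp63, the p63 gene of basal keratinocytes, fell by 1.15 (limma adjusted p = 0.0017, 0.00494 and 0.00447), with a list median of 0.13. In the shGFP channel of the shLoxl2 arrays Epcam was well above background on 2 of 4 and Cdh1 on 1 of 4. The sizes of both rises are therefore not firm. The share of the 9 called was 33.3% in shLoxl2 and 44.4% in shSnail cells, beside 13.8% and 21.3% of all probes. In shSnail cells 1 of 9 rose and 3 fell, with a median of -0.16: Krt8, a keratin of simple epithelia, had 1.12 after dye correction (limma adjusted p = 0.00355), with its shGFP spot well above background on 0 of 2 arrays, Trp63 fell by 1.71, Itga6, an integrin of basal keratinocytes, had -2.08 and Krt14, a basal keratin, -0.82 (limma adjusted p = 0.00146, 0.00282 and 0.0487). Krt14 did not pass without shSnail replicate 1 (limma adjusted p = 0.224). The summed signal of the 9, not corrected for dye, was 135494 and 138531 in the shSnail channel, against 246380 and 239987 in the shGFP channel. On the Cy5 shLoxl2 arrays it was 175561 and 175076 in the shLoxl2 channel, against 235117 and 228783 in the shGFP channel, and on the Cy3 arrays 164121 and 201470, against 164669 and 164907. The sum was thus lower in the silenced channel on every array with silenced RNA in Cy5 and level or higher on those in Cy3, with Krt18 and Krt5 saturated in 2 of 4 shLoxl2 channels and 3 of 4 shGFP channels of those arrays. The part of these markers in the S100a8 and S100a9 values was not tested. Of 7 fibroblast and endothelial markers 0 rose and 1 fell in each line, Pdgfra, by 0.82 in shLoxl2 and 1.18 in shSnail cells (limma adjusted p = 0.0121 and 0.00445), with medians of -0.08 and -0.19. The share called was 14.3% in each line, beside 13.8% and 21.3% of all probes.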

How the data were processed

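RNA of shLoxl2, shSnail and shGFP HACA cells was measured on 2-colour Agilent arrays of 20868 probes. Per the labels' protocols, RNA was amplified with a linear amplification kit. The deposited spot intensity values were made with Agilent Feature Extraction (9.5.1.1 in the file headers, 6.1.1 in the submitters' processing notes), as were deposited log10 ratios, Cy5 over Cy3. The authors' value table repeats these log10 ratios, but its column for shSnail replicate 2 holds those of shSnail replicate 1, so that it served as an alternative with 1 shSnail array; its values match within 0.006, are Cy5 over Cy3 with no further centring, and have medians of 0.0371 to 0.098 per array.

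From the scanner intensity values, normexp background correction (offset 50) and loess within each array were run in limma 3.58.1 (R 4.3.3), with control spots and outliers at weight 0. Spots were averaged by probe, ratios were turned to silenced over shGFP by the dye in the label, and log2 ratios were tested with lmFit and eBayes over 19719 probes that were well above background in a channel on at least 2 arrays; significance was a Benjamini-Hochberg adjusted p under 0.05. Dye-swapped shLoxl2 arrays were averaged to 1 value per replicate, and the dye effect measured in them was removed from the shSnail ratios. Signals across arrays were also Aquantile-normalized. Gene names came from RefSeq for 14711 probes and from the scanner files for 6157; promoter sequences are RefSeq's (GRCm38.p6). The number of arrays limits the precision.

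S100a8, S100a9 and the gene lists were chosen with earlier results of these data known. Named from each list were up to 4 genes with the smallest p past the threshold, and any others, such as Ager, Bsg, Myd88, Stat3, Cebpb, Lcn2, Slpi, Cxcl1 and Cxcl5, were chosen after their values were seen. The script was tested on simulated data. Same-numbered shSnail and shLoxl2 Cy5 arrays had deviations that correlated at 0.21, a check possible over 2 numbers alone.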

Additional observations from a re-analysis of the deposited data

Results flagged for a closer look

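Both genes lay on opposite sides of shGFP in the silenced lines. S100a8 was at a log2 fold change of 0.98 in shLoxl2 and -4.55 in shSnail cells, and S100a9 at 2.72 in shLoxl2 and -3.87 in shSnail cells. What drew attention is that every shLoxl2 array lay above 0 and every shSnail array below it. No test of the difference between the lines' responses is read for these genes, as they were chosen with their ratios known. Both responses were measured against the same shGFP RNA, and scan day cannot be told apart from the line.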

How the results depend on the processing

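In shLoxl2 cells S100a8 ran from 0.62 to 1.34 and S100a9 from 2.46 to 2.94 over 11 alternatives each, within 1 SD of the reported values; the ends for S100a8 are those without shLoxl2 replicate 1 and without shLoxl2 replicate 2, and the highest value of S100a9 is that without shLoxl2 replicate 2. In shSnail cells S100a8 and S100a9 moved to -4.19 and -3.44 with no background subtraction, to -4.91 and -4.15 with the scanner software's log ratio, and to -5.59 and -4.76 with scale normalization between arrays. With 1 replicate left out, S100a8 ran from -4.91 to -4.18 and S100a9 from -4.05 to -3.69. In shSnail against shLoxl2 the same 3 settings gave -5.09 and -6.09, -5.89 and -6.88, and -6.47 and -7.22, and leaving out 1 replicate gave -5.78 to -5.28 for S100a8 and -6.77 to -6.42 for S100a9. Every alternative kept the direction of both genes; the cause of the moves was not tested. The scanner software's log ratio shifted the median of all probes to -0.28 in both shSnail comparisons and called 774 probes in shLoxl2 cells, against 2728. With 1 replicate left out, 1733 to 2789 probes were called in shLoxl2 cells, 1584 to 3144 in shSnail cells and 39 to 4283 between the lines. With the replicate number as a block, possible only in shSnail against shLoxl2, S100a8 and S100a9 stayed at -5.53 and -6.59 and 2709 probes were called, against 2516; Il6st and Saa3 then missed the threshold. S100g reversed in shSnail cells, to -0.73 without any dye correction and -0.05 after a scaled one. Of 129 pairs of a named gene and a comparison, 120 kept their direction under every alternative. In shSnail cells with no dye correction, 7 of 21 signalling genes, 7 of 20 cytokine and receptor genes, 7 of 16 antimicrobial and keratinocyte genes, 5 of 16 induced genes, 3 of 15 receptors and 7 of 9 keratinocyte markers were called, against 2, 5, 3, 3, 1 and 4. That setting called 6195 of all 19719 probes, against 4203. The scanner software's ratios called 4 of 7 fibroblast and endothelial markers, against 1. In shLoxl2 cells the cytokine and receptor genes called ran from 3 to 8 over the alternatives, against 6, and the antimicrobial and keratinocyte genes from 3 to 6, against 5. Taking every probe of a gene gave no other value, as each of the 2 genes has 1 probe, and a slide or scan block could not be fitted because each slide holds 1 array and each scan day 1 silenced line. Both genes were flagged well above background in both channels on all 6 arrays, which does not fix the size of their falls. In the shSnail channel their raw signals were only 282 to 370 over a background of 71 to 72. The falls in shSnail cells are thus firmer in direction than in size. At the bright end, 1 S100a9 spot was saturated, at a raw signal of 65233, and another lay close to it, at 63434.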
